A study of Mus musculus with 6 samples.

Results

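The COUP-TF orphan nuclear receptors and their nearest relatives were followed through 6 single-colour arrays hybridised with RNA that the labels assign to spermatogonia, germ cells that still divide by mitosis. The 5 genes were Nr2f1, Nr2f2, Nr2f6, Nr2c1 and Nr2c2. Their members were all probe sets annotated with 1 of these symbols and no other, 11 of the 36701 probe sets (5 of 15964 named genes) on the 3 chips once control probe sets were set aside. The genes were chosen from earlier results of the same arrays, in which the intensity of Nr2f2 differed between genotypes, so the ratios of Nr2f2 describe these arrays and support nothing beyond them.

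Mice of both genotypes were 1 week old and of mixed 129sv and C57Bl/6 descent. The wild type carried no labelled allele, and the null was a knockout of Zfp145, now named Zbtb16, which encodes the zinc finger repressor PLZF. The labels give neither the part of the gene that was removed, nor the number of animals, nor how the cells were isolated. There was 1 wild-type and 1 null array per chip, and the chips U74Av2, U74Bv2 and U74Cv2 differ in their probe sets. The comparison asks which receptors differ in transcript level when Zbtb16 is disrupted. With 1 array per genotype and chip there is no replicate, no test was made, and the number of arrays limits the precision.

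Nuclear receptors are transcription factors with a zinc finger DNA-binding domain and a ligand-binding domain, and those called orphan were found before any ligand was known. The COUP-TFs, encoded by Nr2f1 (COUP-TFI), Nr2f2 (COUP-TFII) and Nr2f6 (EAR2), mostly repress transcription and bind repeats of the half-site AGGTCA. Nr2c1 and Nr2c2 encode TR2 and TR4, which bind the same half-site and act together in the repression of embryonic globin genes. In the testis COUP-TFII is known from interstitial cells, where it marks the progenitors of Leydig cells and takes part in their maturation, while TR2 and TR4 are known from germ cells. In RNA from a mixture of cells, fewer cells of a type and less RNA per cell cannot be told apart.

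Nr2f2 is shown by the RefSeq window around its start, 250 bases before to 50 after, since it was the member that passed 2-fold. The window lies on the minus strand of GRCm38.p6 at chr7:70366697-70366996 and is written 5′ to 3′. Capitals would mark AGGTCA or its reverse complement TGACCT, and there are none.
Nr2f2: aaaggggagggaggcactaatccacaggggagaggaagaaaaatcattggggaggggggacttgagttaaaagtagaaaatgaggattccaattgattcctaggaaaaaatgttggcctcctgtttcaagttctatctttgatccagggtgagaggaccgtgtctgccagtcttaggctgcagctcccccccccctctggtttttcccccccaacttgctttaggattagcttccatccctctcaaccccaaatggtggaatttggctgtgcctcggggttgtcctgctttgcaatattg
The half-site, searched on both strands, was in none of the 6 RefSeq start windows of the 5 genes, and in 16.3% of the 32851 windows of all genes. Absence of these letters says nothing about binding elsewhere in the gene. The GC content of the Nr2f2 window was 49.7%, against 82.7% for Nr2f6, 69.0% for Nr2c2 and 63.3% for Nr2c1, while the windows of Nr2f1 were at 68.0% and 43.0%. The arrays measured transcripts and not these windows.

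Of the 11 probe sets, 5 lay above the floor of their chip on both arrays and 6 lay at or below it on both. The floor is the 40th percentile of the scaled intensities, 98.3 on U74Av2, 165 on U74Bv2 and 124 on U74Cv2, and values under it were not read as levels. Nr2f2, Nr2f6, Nr2c1 and Nr2c2 were thus measured by at least 1 probe set, and Nr2f1 by none. Ratios are log2 of null over wild type after scaling of the null array. Readings given for single probe sets are the deposited intensities before that scaling, so a ratio can differ slightly from their quotient. Of the 5 measured probe sets, 4 had a ratio below 0 and 1 above, from -1.35 to 0.27. Only 1, of Nr2f2 on U74Av2, was at least 2-fold lower in the null array, and 0 were at least 2-fold higher. Among all probe sets above the floor on at least 1 array, 0.575% were at least 2-fold lower and 0.332% at least 2-fold higher on U74Av2. These shares were 1% and 0.815% on U74Bv2, and 5.46% and 5.68% on U74Cv2. Since the genes were chosen with these ratios known, nothing is read from the count against those shares.

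**Figure D1:**
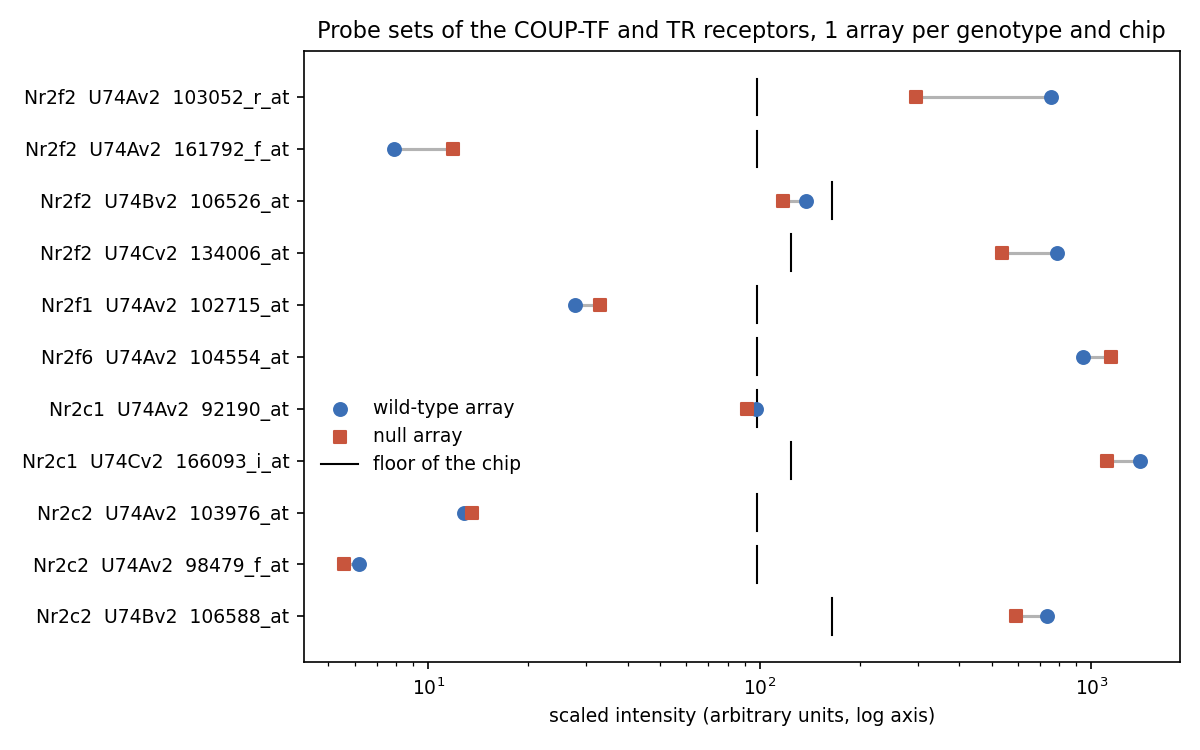
Scaled intensity (log axis, arbitrary units) of each of the 11 probe sets on the wild-type array (circles) and the null array (squares), with the floor of the chip as a vertical tick. The widest gap above the floor is that of Nr2f2 on U74Av2, and 6 probe sets lie at or below the floor on both arrays.

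Nr2f2 had 4 probe sets. On U74Av2 the measured probe set stood at 756.8 in the wild-type array and at 298.4 in the null array, a ratio of -1.35, or 2.55-fold lower. Both intensities lay well above the floor, the first at the 78.4th and the second at the 60.1st percentile of its array. Of the 7082 probe sets measured on both arrays of this chip, 9 had a ratio this low or lower, itself and a probe set of Zbtb16 included. The central 95% of ratios at middle level on this chip ran from -0.56 to 0.60.

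On U74Cv2 the Nr2f2 probe set had an intensity of 785.1 in wild type against 547.8 in null, a ratio of -0.54, or 1.46-fold lower. The direction was that of U74Av2 and the size was smaller. The ratio was inside the central 95% for its level on this chip, -1.13 to 1.18, and 12.9% of the 6280 measured probe sets had a ratio this low or lower. The remaining Nr2f2 probe sets gave no ratio. That on U74Bv2 was at 137.9 in wild type and 117.9 in null, and the second one on U74Av2 was at 7.9 and 12.

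Probe sets that target the same gene vary among themselves, and this spread, the scaled median absolute difference of their ratios over the square root of 2, gives a scale for these ratios. It was 0.21 at the level of Nr2f2 on U74Av2 and 0.42 at its level on U74Cv2. The ratio was 6.39 times the spread on the first chip and 1.30 times on the second. This spread holds technical error and differences between transcripts, and not the variation between animals. The 2 measured ratios of Nr2f2 lay 0.81 apart. Over the 1476 pairs of measured probe sets of a same gene on U74Av2 and U74Cv2, the median distance was 0.33, and 14.4% of pairs lay at least as far apart as those of Nr2f2. In 13 pairs, of 12 genes among 992, both ratios were at or below -0.54, and Nr2f2 and the targeted gene Zbtb16 were among them. The value that bounds this count is that of Nr2f2 itself, so the count is a description.

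The design of the probe sets differed. In the naming of these chips the suffix r marks a set in which some rules of probe selection were dropped, f one whose probes resemble a family of sequences, and i one with fewer unique probes than aimed for. The U74Av2 probe set that passed 2-fold carries r. The U74Cv2 probe set of Nr2f2 carries no suffix. Of all 11 probe sets 4 carried one. The part of the suffix in the ratio was not tested.

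Nr2f1, the gene of COUP-TFI, had a single probe set on U74Av2 with 27.7 in wild type and 33.1 in null. Both intensities were under the floor of 98.3, so no level or ratio is given. Nr2f6, the gene of the third COUP-TF, had 945.9 in wild type and 1150.7 in null on the same chip, a ratio of 0.27, or 1.21-fold higher. It was the sole measured member with higher intensity in the null. This ratio was 1.86 times the spread of 0.15 at high level and lay inside the central 95% there, -0.46 to 0.45. On U74Av2, 15.8% of measured probe sets had a ratio this high or higher.

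Nr2c1, the gene of TR2, was measured on U74Cv2 by a probe set with the suffix i, at 1401 in wild type and 1135.2 in null. The ratio was -0.33, or 1.25-fold lower, beside a spread of 0.30, and 23.4% of measured probe sets on the chip were as low or lower. Its probe set on U74Av2 read 97.4 and 91.8, just under the floor. Nr2c2, the gene of TR4, was measured on U74Bv2, at 733.5 in wild type and 595.4 in null. The ratio was -0.31, or 1.24-fold lower, beside a spread of 0.33, and 17.0% of measured probe sets were as low or lower. Its probe sets on U74Av2 read 12.8 and 13.6, and 6.2 and 5.6, all far under the floor. For both TR genes the ratio was about the size of the spread between probe sets.

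**Figure D2:**
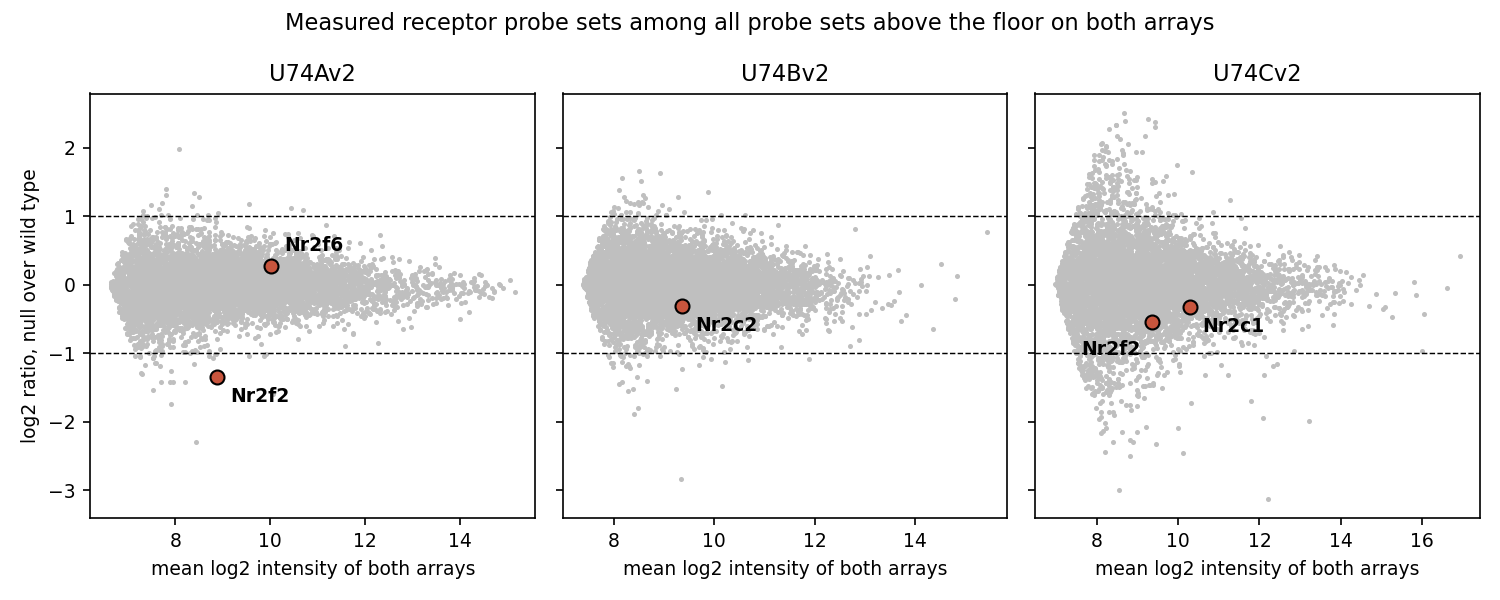
Log2 ratio of null over wild type against the mean log2 intensity of both arrays for every probe set above the floor on both arrays (grey), with the measured receptor probe sets marked and dashed lines at 2-fold. On U74Av2 Nr2f2 lies at -1.35, near the lower edge of the points, with 9 of 7082 as low or lower, itself included. On U74Cv2 it lies at -0.54 among the grey points, as do Nr2f6, Nr2c1 and Nr2c2 on their chips.

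The genotype labels were checked on Zbtb16. Its measured probe set on U74Av2 read 770.2 in wild type and 158.1 in null, a ratio of -2.29. That on U74Cv2 read 1156.8 and 510.8, a ratio of -1.20. Both were lower in the null but still above the floor there, and it is not given whether they lie in the part removed. Of all probe sets with signal on U74Cv2, 5.46% were at least 2-fold lower. Markers of several cell types gave signal. All 12 Sertoli markers, 9 of 10 germ cell markers on the chips, 13 of 16 interstitial progenitor markers and all 7 macrophage markers gave signal over the floor in 1 genotype or both. So did 7 of 9 Leydig, 5 of 7 peritubular myoid and 6 of 7 endothelial markers. Over all named genes 12435 of 15964 did, and the floor is a percentile of intensity, so these counts do not show which cell types were present. By level on U74Av2 the Sertoli marker Clu stood at the 99.6th percentile and the germ cell marker Dazl at the 98.0th. Dcn of the interstitial list stood at the 97.9th and Acta2 of the peritubular list at the 96.6th. Other markers of these lists on that chip were dimmer, some at the floor. Which cells gave the signal of Nr2f2 was not tested. Of the germ cell markers on the chips only Ret was at the floor.

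For the genes around the receptors, the probe set ranking highest in intensity within its chip stood for the gene. Over all 12435 genes with signal the median ratio was -0.01 and 51.5% lay below 0. By this measure 1.64% of genes were at least 2-fold lower and 1.42% at least 2-fold higher. The lists were drawn up with earlier results of these arrays known, and their counts and medians are descriptions.

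Markers of the interstitial progenitors in which COUP-TFII is known had a median ratio of 0.25, with 10 of 13 above 0, 0 at least 2-fold lower and 0 at least 2-fold higher. On U74Av2 the scaled intensities of the 10 markers with signal summed to 15333 in wild type and 19401 in null. The collagen genes Col1a1 and Col3a1 contribute to these sums. The part of interstitial cell number in the ratio of Nr2f2 was not tested. Dcn, a matrix proteoglycan, stood at 0.14, and the collagen gene Col1a1 read 3075 in wild type and 4733.2 in null, a ratio of 0.61 with 0.54 in its other probe set. The markers Pdgfra, a growth factor receptor, and Tcf21, a transcription factor of mesenchymal progenitors, were singled out after their values were seen. They were among the lower ratios of the list, whose highest was Lum at 0.82. Pdgfra read 771.7 in wild type and 772.9 in null before scaling, a ratio of -0.01 after it. Tcf21 read 711.3 and 680.8, a ratio of -0.07. Lhx9, Thy1 and Cspg4 were at the floor on both arrays. Pdgfrb was at the floor in the null array, so its ratio is a bound. Ratios of the 12 markers above the floor on both arrays ran from -0.07 to 0.82. A floor at the 20th percentile turned Pdgfrb, a second growth factor receptor, to -0.67 and gave Lhx9 a bound of -0.93, both below the U74Cv2 ratio of Nr2f2.

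Steroidogenic and Leydig cell genes that COUP-TFII is known to bind or regulate had a median of -0.17, with 9 of 11 below 0 and 0 past 2-fold in either direction. Amhr2, the receptor of anti-Müllerian hormone, had 4 measured probe sets on U74Cv2, with ratios of -0.43, -0.05, 0.37 and -0.57 that did not go one way. All 4 carry the suffix f or r. Inha, the inhibin alpha subunit, stood at -0.11. The other members are given in full, a choice made after their values were seen. The cholesterol side-chain cleavage enzyme gene Cyp11a1 read 406.5 in wild type and 232.5 in null, a ratio of -0.81. Hsd3b1, the next enzyme of the pathway, read 487.1 and 328.3, a ratio of -0.58. Nr5a1, the gene of the nuclear receptor SF-1, had ratios of -0.38, -0.42 and -0.22 in its 3 measured probe sets, and Nr0b1, the gene of its repressor DAX-1, stood at -0.56. The steroidogenic enzyme gene Cyp17a1 stood at -0.13 and the lipoprotein receptor gene Scarb1 at -0.07. Star, which brings cholesterol into mitochondria, stood at -0.17 on U74Cv2, at -0.22 on U74Av2 and at 0.27 on U74Bv2. A further Star probe set on U74Av2 had a bound of -0.17. Gsta3, a glutathione transferase, stood at 0.26 and Akr1c14 had a bound of 0.15, both upward, and Insl3 was at the floor on both arrays. Nr5a1 and Nr0b1 are also known from Sertoli cells, whose markers had a median of -0.20, with 9 of 12 below 0. The Sertoli marker Rhox5, a homeobox gene, was at least 2-fold lower, at -1.04. The part of Leydig or Sertoli cell number in these ratios was not tested.

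The other marker lists give the setting. The full Leydig list, which shares genes with the steroidogenic one, had a median of -0.13 over 7 genes, with Hsd17b3, an enzyme of testosterone synthesis, at 1.20 from 1 dim probe set. Hsd3b6 was at the floor. Macrophage markers had a median of -0.22. Among them Laptm5 stood at -0.45 on U74Cv2 and at -0.01 and -0.19 on U74Av2, and Cx3cr1 at -0.14 on U74Cv2 and -0.27 on U74Av2. Germ cell markers had a median of 0.22 over 9 genes. Among them Sall4 stood at -1.32 on U74Cv2, in a probe set with the suffix r. On the other chips it stood at 0.27 and 0.63, in probe sets without a suffix. Peritubular myoid markers had a median of 0.02, with Mylk at -0.37 and Acta2 at -0.11 on U74Av2 and 0.67 on U74Cv2. The median of endothelial markers was 0.01, with Eng at 0.12 and Egfl7 at -0.36.

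**Figure D3:**
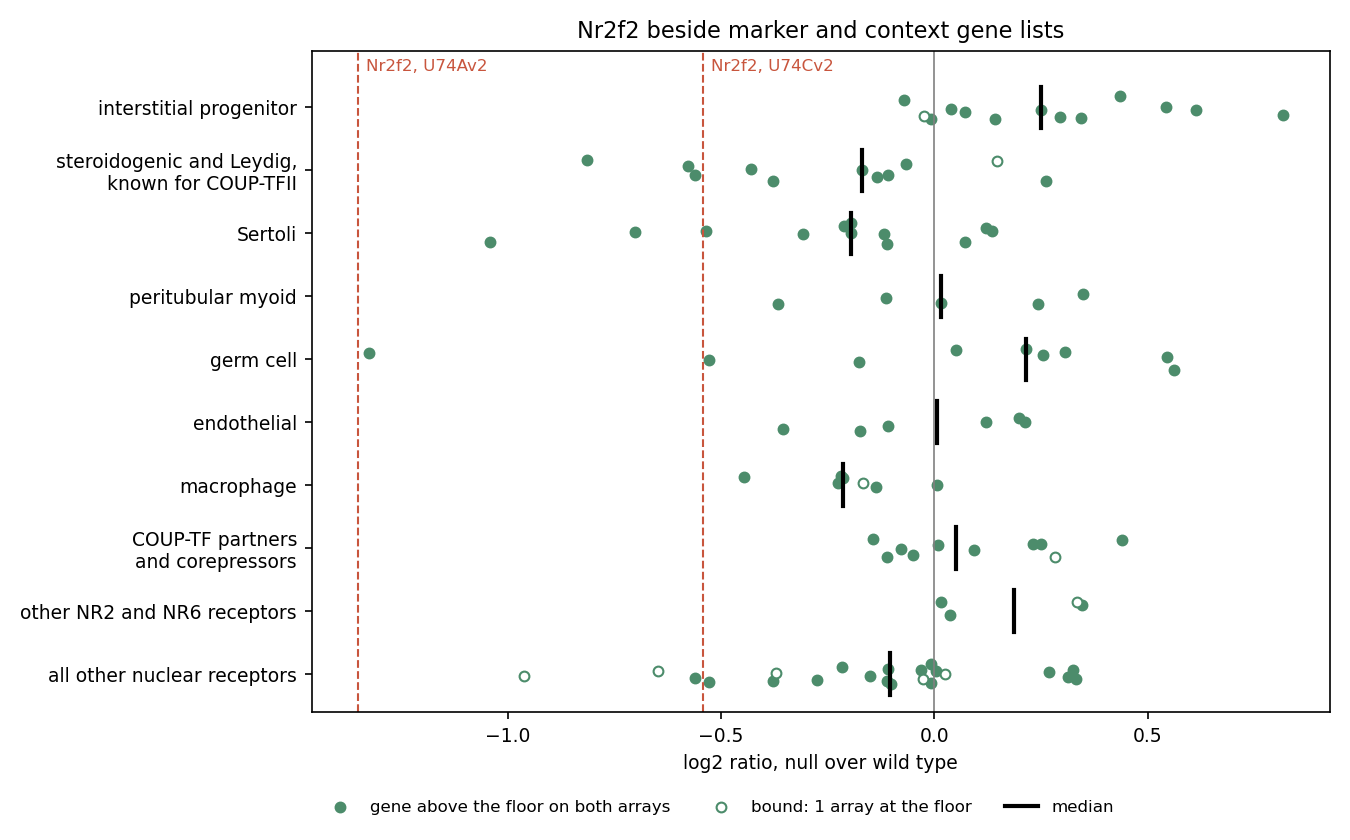
Log2 ratio of null over wild type of each gene with signal in 10 gene lists (filled, above the floor on both arrays; open, a bound because 1 array is at the floor), with the list median as a black bar and the ratios of Nr2f2 as dashed lines. Interstitial progenitor markers have a median of 0.25 and the steroidogenic list one of -0.17, and the 12 interstitial markers drawn as filled points lie between -0.07 and 0.82, with Pdgfrb a bound.

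Partners and corepressors of the COUP-TFs and TRs had a median of 0.05, with 6 of 10 above 0 and 0 past 2-fold in either direction. The brightest were Sp1, a zinc finger activator with which COUP-TFs cooperate, at 0.09, and the corepressor Trim28 at 0.01. Their other measured probe sets stood at 0.39 and 0.21 for Sp1 and at 0.26 and 0.30 for Trim28. Zfpm2, the gene of FOG2, which binds COUP-TFII, was singled out after its values were seen and stood at 0.25 and 0.03 in its measured probe sets. Of the other targets known for COUP-TFs or TR2 and TR4, 10 of 15 had signal, with a median of -0.13. Angpt1, the angiopoietin that COUP-TFII is known to regulate, was at least 2.20-fold lower on U74Cv2, where the null array was at the floor. Its other probe set gave no ratio. Pou5f1, the pluripotency gene whose promoter the NR2 receptors bind, was at least 2.28-fold lower on U74Cv2 and stood at 0.17 on U74Av2. Of all probe sets with signal on U74Cv2, 5.46% were at least 2-fold lower and 5.68% at least 2-fold higher. The embryonic globin genes Hbb-bh1 and Hbb-y, known targets of TR2 and TR4, were at the floor on both arrays.

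Among the remaining NR2 and NR6 receptors 4 of 7 had signal, all with ratios above 0 and none past 2-fold, but a floor at the 20th percentile left 2 of 6 below 0. Nr6a1, the germ cell nuclear factor, stood at 0.02. Rxra, a retinoid X receptor, stood at 0.35 in its brightest probe set and between -0.65 and 0.35 over its 5 measured ones. Among all other nuclear receptors 22 of 31 had signal, with a median of -0.10, 16 of them below 0, and 0 past 2-fold. The brightest were the retinoic acid receptor gene Rara at -0.22 and the thyroid hormone receptor gene Thra at -0.27. At this floor Nr2f2 was the one listed nuclear receptor gene with a probe set past 2-fold, and it is also the one for which the family was chosen. Nr1i3, the gene of the receptor CAR, had a bound of -0.96 in its brightest probe set. A floor at the 20th percentile put 5 receptor genes, Nr2f2 and Nr1i3 among them, past 2-fold lower in at least 1 probe set and 3 past 2-fold higher. Nr1i3 had probe sets in both directions. With that floor 4.57% of all probe sets with signal on U74Av2 were at least 2-fold lower and 1.91% at least 2-fold higher. These shares were 4.77% and 4.66% on U74Bv2, and 10.5% and 9.51% on U74Cv2. A gene could be counted through any of its probe sets, so nothing is read from these counts.

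Genes whose ratio was closest to that of Nr2f2 were taken among probe sets with 1 symbol in the upper 25% of intensity on the same chip. For its probe set of the highest level, that on U74Cv2, these were Gm3336, Scara5, Wipf2, Syn2 and Zfp809, all at -0.54. On that chip 257 of 2475 such probe sets had a ratio as low or lower, so many were about as close. Other measured probe sets of these genes stood at -0.48 for Scara5, -0.22 for Wipf2, -0.74 and -0.61 for Syn2, and -0.51 and 1.63 for Zfp809. Gm3336 had no other. The probe sets named for Gm3336 and Syn2 carry the suffix f, and that for Zfp809 carries r. For the probe set on U74Av2, a choice made after the values were seen, the nearest were H3c14 at -1.59, Rhox5 at -1.04, Ccndbp1 at -1.04, Wdtc1 at -1.02 and Commd1 at -1.01. Only 2 of 2968 such probe sets were as low as Nr2f2 or lower. The probe set of H3c14 carries r, and none of the genes named for U74Av2 had another measured probe set. Likeness here is the distance in ratio over 2 arrays.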

How the data were processed

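The authors deposited linear intensities, 1 value per probe set and array; the software behind them is not given in the sources used here. Trimmed means (2% removed at each end) were 500.3, 500.1 and 500.3 on both arrays of U74Av2, U74Bv2 and U74Cv2, so the deposited intensities were scaled by array. Samples were grouped by their titles. GEO's platform annotation named the genes, and all 11 probe sets matched the RefSeq table of GRCm38.p6 by Entrez identifier. On each chip, 66 control probe sets were removed, null values were scaled by the median ratio over the upper 50% of mean rank (log2 shift 0.01, 0.00 and 0.02), and values were raised to the floor before log2 was taken. With 1 array at the floor the ratio is a bound. Members and lists were chosen with earlier results of these data known. From each list the text names up to 4 genes past 2-fold, brightest first, or else the 2 brightest; others are marked where named. Start windows are RefSeq's. Alternatives were other scalings (deposited, quantile, loess), floors (20th and 60th percentile, none), thresholds (1.5-fold, 3-fold) and plain-design probe sets. Python 3.11.15, numpy 2.4.6, pandas 2.3.3, statsmodels 0.14.6 and matplotlib 3.10.9 were used, and the calculation was tested on simulated data.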

Additional observations from a re-analysis of the deposited data

How the results depend on the processing

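The ratio of each of the 5 measured probe sets moved by less than the spread between probe sets under the 3 other scalings and 3 other floors. That of Nr2f2 ranged from -1.36 to -1.34 on U74Av2 and from -0.56 to -0.52 on U74Cv2. The count of 1 probe set at least 2-fold lower was 0 with a 3-fold threshold and 0 with plain-design probe sets only, where the U74Av2 probe set of Nr2f2 is left out by its suffix. With a 1.5-fold threshold it was 1, beside 4.05% of all probe sets on U74Av2, and the count of higher probe sets was 0 under every alternative run. With the floor at the 20th percentile 3 more probe sets were measured, with ratios of -0.23 for Nr2f2 on U74Bv2, -0.09 for Nr2c1 and 0.25 for Nr2f1. With that floor or none the median of the interstitial markers was 0.11, with 6 of 16 below 0, and that of the steroidogenic list -0.27. Under the other scalings and the floor at the 60th percentile these medians stayed between 0.27 and 0.29 and between -0.38 and -0.15. The peritubular median turned to -0.00 with loess and the endothelial one to -0.03 with the floor at the 60th percentile. No paired analysis was possible because each chip held 1 array per genotype. Signal over background limits Nr2f1, whose single probe set is under the floor.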
